A study of Mus musculus with 8 samples.

Results

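The odorant receptor genes of the mouse (symbols Olfr followed by a number) were examined in cultured sacral neural crest cells as a family that such cells are not known to use. The set held every probe set whose only gene symbol began with Olfr and a number, with pseudogenes left out and the probe set of highest mean kept for a gene with several. It came to 211 genes, of 6855 genes in the table used here, and the other 6644 genes served as the comparison. Of the 211 genes, 69 lay on chromosome 11, 56 on chromosome 10, 35 on chromosome 14, 26 on chromosome 1, 11 on chromosome 13, 8 on chromosome 15 and 6 on chromosome 16. A RefSeq table of the mouse genome lists 1118 Olfr genes without the pseudogene suffix, and those outside this set were not analysed here.

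Dom/Dom and wild-type cultures were compared on Affymetrix Mouse Gene 1.0 ST arrays: embryos homozygous for Dom, a frameshift allele of the transcription factor gene Sox10, and wild-type embryos, with 4 arrays each, numbered as replicates 1 to 4. Per the labels' protocols, the neural tube caudal to somite 24 was dissected at embryonic day 9.5 and cultured with 10% serum, the explant was removed after 24 hours, and RNA was taken from the cells that had left it. The strain of the embryos is not given in the sources used here, nor whether replicates came from separate embryos, and a p-value here covers no more than the scatter among these arrays, part or all of which may be technical. Of 11 measured neural crest markers, all 11 stood above the level called the ceiling below, with Cdh6 highest at 13.27 and Twist1 lowest at 8.59. So did 68.5% of all genes outside the family. Among markers of other cells, 5 of 5 for neurons, 6 of 8 for mesoderm and smooth muscle and 4 of 5 for epithelium stood above it. For blood and endothelium 1 of 3 did. The count is therefore not particular to neural crest cells.

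Odorant receptors are G protein-coupled receptors of the olfactory epithelium, where a mature sensory neuron expresses a single receptor gene, from one allele, and keeps the others in repressed chromatin. The genes lie in clusters along the chromosomes, and the receptor signals through a G protein, the adenylyl cyclase Adcy3 and a cyclic nucleotide-gated channel. In tissues without these neurons most of the family is regarded as silent. Its probe sets then mainly carry non-specific signal, and the family is used here as a description of what dim probe sets look like. The arrays came without detection calls, so silence itself was not measured.

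All values are log2 levels of probe sets. The level of a probe set depends on its own probes as well as on the RNA, so an order of genes by level is an order of probe set signals and not of transcript amounts. Promoter windows were matched for 178 of the 211 genes in RefSeq (GRCm38.p6). They are shown for 4 genes because the level of the receptor probe sets ran with the base composition of these windows, as described further on. Each window covers 250 bases before and 50 bases after the annotated start, written from 5′ to 3′, and capitals mark CG dinucleotides and the ATG at the annotated start. Olfr767, at chr10:129079912-129080211 (minus strand), had the highest level of the family. Olfr414, at chr1:174430180-174430479 (plus strand), stands for the windows rich in G and C. Olfr806, at chr10:129738866-129739165 (minus strand), and Olfr787, at chr10:129462428-129462727 (plus strand), were among the 5 lowest.
Olfr767: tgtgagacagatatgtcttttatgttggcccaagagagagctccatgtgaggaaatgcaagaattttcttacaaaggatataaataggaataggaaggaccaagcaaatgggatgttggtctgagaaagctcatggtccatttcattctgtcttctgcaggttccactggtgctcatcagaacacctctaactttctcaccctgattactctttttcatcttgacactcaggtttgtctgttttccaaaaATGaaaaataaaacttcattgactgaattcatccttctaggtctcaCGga
Olfr414: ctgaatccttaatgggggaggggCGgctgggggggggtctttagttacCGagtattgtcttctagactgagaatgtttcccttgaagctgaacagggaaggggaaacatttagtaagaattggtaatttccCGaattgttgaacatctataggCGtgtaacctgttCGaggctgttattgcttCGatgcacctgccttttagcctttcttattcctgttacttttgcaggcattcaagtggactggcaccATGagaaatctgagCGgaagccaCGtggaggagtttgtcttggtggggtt
Olfr806: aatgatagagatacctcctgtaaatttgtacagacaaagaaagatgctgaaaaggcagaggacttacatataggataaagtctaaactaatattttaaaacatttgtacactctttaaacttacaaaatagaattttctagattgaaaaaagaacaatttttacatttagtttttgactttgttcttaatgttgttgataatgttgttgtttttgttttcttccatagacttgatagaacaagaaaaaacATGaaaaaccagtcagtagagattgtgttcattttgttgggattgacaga
Olfr787: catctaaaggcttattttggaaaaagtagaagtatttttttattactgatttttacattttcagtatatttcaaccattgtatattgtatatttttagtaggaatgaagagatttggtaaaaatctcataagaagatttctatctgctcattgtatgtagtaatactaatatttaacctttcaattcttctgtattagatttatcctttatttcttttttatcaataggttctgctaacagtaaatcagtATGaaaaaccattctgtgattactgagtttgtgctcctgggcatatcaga

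Receptor levels lay far below those of most genes but spread widely among themselves. The mean over the 8 arrays ran from 3.78 for Olfr806 to 9.68 for Olfr767, a span of 5.90 log2 units or 59.7-fold, with a median of 6.54. The middle 50% lay between 5.93 and 7.47. Of the 211 genes, 72 fell between 6 and 7 log2 units, 59 between 7 and 8, 43 between 5 and 6, and 0 above 10. The median of the other genes was 9.39, and 409 of them (6.16%) lay below the receptor median. The 95th percentile of the receptor means was 8.23 and is called the ceiling here. Of the 6644 other genes, 4552 (68.5%) stood above it and 2092 (31.5%) at or below it, while 3025 (45.5%) stood above Olfr767, the brightest receptor.

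**Figure D1:**
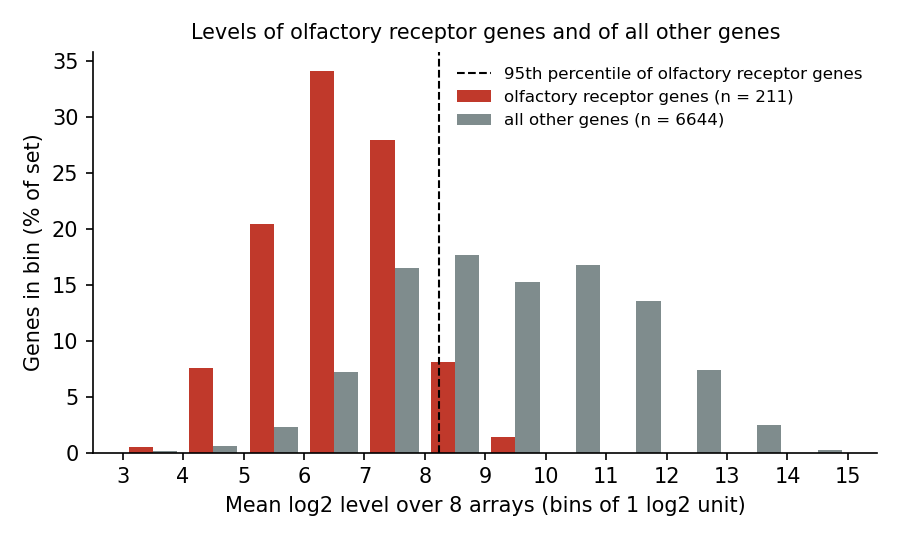
Share of genes (percent of each set) in bins of 1 log2 unit of the mean level over 8 arrays, for 211 olfactory receptor genes (red) and 6644 other genes (grey). The dashed line is the 95th percentile of the receptors at 8.23, with 68.5% of the other genes above it.

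The same probe sets were dim or bright in every array. Correlations of the 211 levels between any 2 arrays ran from 0.980 to 0.993, as a description across genes that share arrays. The range of a single gene over the 8 arrays had a median of 0.44 log2 units, from 0.09 to 1.11. The distance between genes was thus much larger than the movement of a gene between arrays.

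The family medians lay farther apart between replicate numbers than between genotypes. In Dom/Dom arrays the family median was 6.68, 6.53, 6.54 and 6.51 for replicates 1 to 4. In wild-type arrays it was 6.70, 6.53, 6.52 and 6.45. Replicate 1 was the highest array of both genotypes, and the genotypes overlapped. Averaged over arrays, these medians came to 6.56 ± 0.08 for Dom/Dom and 6.55 ± 0.11 for wild type (SD, n = 4). Of the 211 genes, 137 had their highest Dom/Dom value in replicate 1 and 123 their highest wild-type value there, while 115 and 108 had their lowest in replicate 4. The 95th percentile within an array was also highest in the replicate 1 arrays, with 8.50 for Dom/Dom and 8.39 for wild type, and lay from 8.07 to 8.26 in the other 6. The median of the other genes lay between 9.29 and 9.45 in the 8 arrays, and in replicate 1 it was 9.37 and 9.39. The share of other genes above the 95th percentile of their own array ran from 64.7% in Dom/Dom replicate 1 to 71.1% in wild-type replicate 4.

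**Figure D2:**
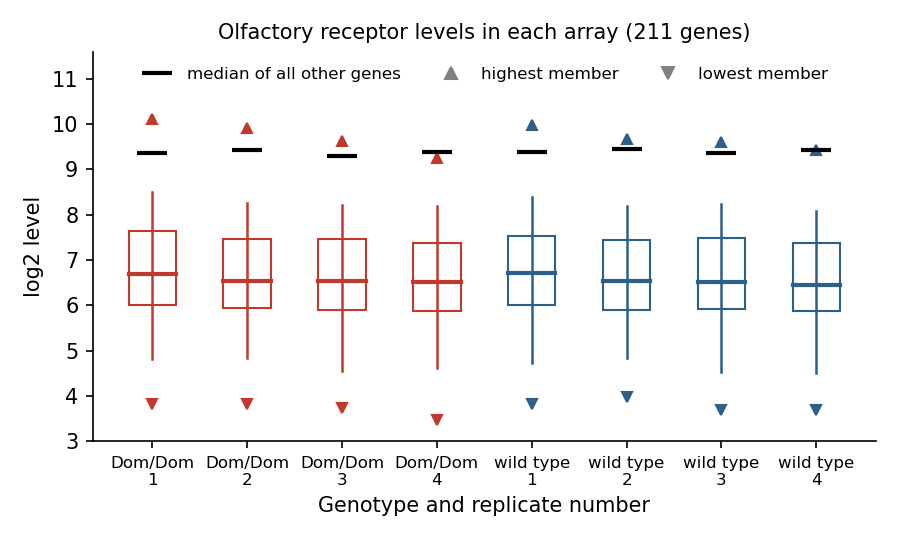
Log2 levels of the 211 olfactory receptor genes in each array, with Dom/Dom in red and wild type in blue: box, middle 50%; thick line, median; thin line, 5th to 95th percentile; triangles, highest and lowest receptor; black bar, median of all other genes. Receptor medians lie between 6.45 and 6.70 and are highest in replicate 1 of both genotypes.

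No receptor passed an outlier fence of the family in every array. An upper fence was set in each array at the third quartile plus 1.5 interquartile ranges of the receptors, and 0 of 211 genes passed it in all 8 arrays. The fences lay from 9.65 to 10.08, above the median of the other genes in each array (9.29 to 9.45). A receptor at the level of a typical gene would thus not pass, and the count does not show that receptors were silent. Olfr767 (probe set 10373610, chromosome 10) was the single gene to pass it in any array. Its levels were 10.11, 9.91, 9.63 and 9.12 in Dom/Dom replicates 1 to 4 and 9.97, 9.67, 9.59 and 9.42 in wild type. It passed the fence in 3 arrays, Dom/Dom replicates 1 and 2 and wild-type replicate 1, where the fences stood at 10.08, 9.74 and 9.82. Its levels followed the replicate number in both genotypes, and its range of 0.99 was among the wide ones of the family. The genotypes overlapped, with a difference of 0.03 and a standard error of 0.20 (limma adjusted p = 1.00).

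The next 4 genes by level were Olfr401 and Olfr314 on chromosome 11, Olfr282 on chromosome 15 and Olfr1395 on chromosome 11. Olfr401 gave 9.34, 9.15, 9.53 and 9.26 in Dom/Dom arrays and 9.38, 8.97, 9.48 and 9.36 in wild type. In Olfr314 the values were 9.33, 8.95, 9.08 and 8.86 against 9.24, 8.97, 9.06 and 8.82. Both genes gave nearly the same levels in same-numbered arrays of the 2 genotypes. Olfr282 gave 9.02, 8.89, 8.84 and 8.71 in Dom/Dom and 8.999, 8.86, 8.86 and 8.61 in wild type. Olfr1395 gave 8.80, 8.51, 8.60 and 8.43 against 8.68, 8.52, 8.56 and 8.37. In all 4 genes the genotypes overlapped, and their differences lay between 0.02 and 0.05 with standard errors from 0.10 to 0.12. Beyond these 5, the genes above the ceiling were Olfr1510, Olfr411, Olfr1394, Olfr1393, Olfr1410 and Olfr462, from 8.51 down to 8.28, and just below it came Olfr54 at 8.18. Olfr1393 (Dom/Dom 8.45 ± 0.15, wild type 8.35 ± 0.16; SD, n = 4) encodes a receptor also known from the kidney, and Olfr16 (7.0 ± 0.09 and 6.86 ± 0.10, SD, n = 4) one also known from sperm and muscle. These 2 were chosen for that background after their values were seen.

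Of the measured genes directly beside the 5 brightest receptors, all but Olfr1394 stood below the ceiling. Most of these neighbours are receptors themselves, and by its definition 200 of 211 receptors lay at or below the ceiling. In RefSeq order, Olfr767 lies between Olfr765 (7.63) and Olfr768 (5.40), and Olfr401 between the zinc finger gene Zfp616 (5.34) and Olfr402 (7.48). Olfr314 lies between Fam183b (7.14) and Olfr313 (6.98), and Olfr282 between Olfr283 (7.56) and Olfr281 (7.16). Olfr1395 is followed by Olfr1394, which stood at 8.44.

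At the other end, the 5 lowest genes were Olfr806, Olfr203, Olfr722, Olfr804 and Olfr787. Olfr806 stood at 3.82, 4.01, 3.73 and 3.47 in Dom/Dom and at 3.83, 3.98, 3.69 and 3.70 in wild type. Olfr787 stood at 4.51, 4.55, 4.33 and 4.32 against 4.35, 4.48, 4.35 and 4.35. Olfr806, Olfr804 and Olfr787 lie on chromosome 10, Olfr722 on chromosome 14 and Olfr203 on chromosome 16. The genotypes overlapped in each of the 5. Only 3 of the 6644 other genes had a lower mean than Olfr806.

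Median levels differed by location and by receptor family, while levels within large clusters spread widely. With members less than 1 Mb apart joined, the 211 genes formed 18 clusters, of which 10 had at least 5 members. The medians of these 10 ran from 5.89 for the 48 genes between Olfr9 and Olfr827 on chromosome 10 to 7.79 for the 7 genes between Olfr1416 and Olfr12 on chromosome 1. That cluster of 48 held both the brightest and the dimmest receptor. Its levels had an SD of 1.11, against 1.10 over the whole family. The 27 genes between Olfr20 and Olfr412 on chromosome 11 had a median of 6.33 but held Olfr401, and the 14 genes between Olfr1396 and Olfr1382 had one of 7.51 with 3 genes above the ceiling. By chromosome, medians were 7.56 (chromosome 15), 7.28 (chromosome 11), 7.23 (chromosome 13), 7.10 (chromosome 1), 6.23 (chromosome 14), 5.90 (chromosome 10) and 5.89 (chromosome 16).

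RefSeq synonyms gave a family number of the MOR nomenclature, which groups odorant receptors by sequence, for 207 of the 211 genes. Of 60 families, 15 had at least 5 members. Their medians ran from 5.03 in family 113 (5 genes on chromosome 10) to 7.82 in family 208 (5 genes on chromosome 1). The largest, family 256, had 26 members in 4 clusters, a median of 7.44 and levels from 5.61 to 8.40. Family 135, with 17 members in 1 cluster on chromosome 11, had a median of 6.02, and its brightest member, Olfr20, stood at 7.30. Family 255, 6 genes of the same cluster, had a median of 7.73 and held Olfr401 and Olfr411, both above the ceiling. Members of a family are alike in sequence and can share probes or bind related RNA, so they are not independent values.

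Receptor probe sets were brighter where the promoter window held more G and C. The GC content of the 179 windows of the 178 genes ran from 25.7% to 59.0%, with a median of 38.0%, against 58.7% in the 6300 windows of the other measured genes. The median window held 1 CG dinucleotide in the receptors and 17 in the other genes. In the windows printed above, GC content was 39.7% for Olfr767, 47.3% for Olfr414, 28.0% for Olfr806 and 27.0% for Olfr787, with 1, 8, 0 and 0 CG dinucleotides. Among genes with a GC content under 35% the median level was 5.99 (70 genes), from 35% to 40% it was 6.84 (39 genes), from 40% to 45% it was 6.90 (38 genes), and from 45% it was 7.56 (31 genes). Across the 178 genes Pearson's r was 0.51 and Spearman's rho 0.54. With each chromosome centred, r was 0.42, and within the 6 chromosomes with at least 6 such genes it ran from 0.26 to 0.73. Neighbouring genes share base composition, and the GC content of the probes themselves was not tested.

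Across 1504 other genes at or below the ceiling with a window, r between GC content and level was 0.44 and rho was 0.46. The difference between genotypes in the receptors did not run with GC content (r = -0.003). Single genes lay far from the trend on both sides. Among them, picked after their values were seen, were Olfr401, at 9.31 with 33.7% GC, Olfr203, at 4.13 with 39.3%, Olfr1404, at 5.53 with 45.7%, and Olfr1414, at 6.55 with 59.0%, the highest GC content of the family.

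**Figure D3:**
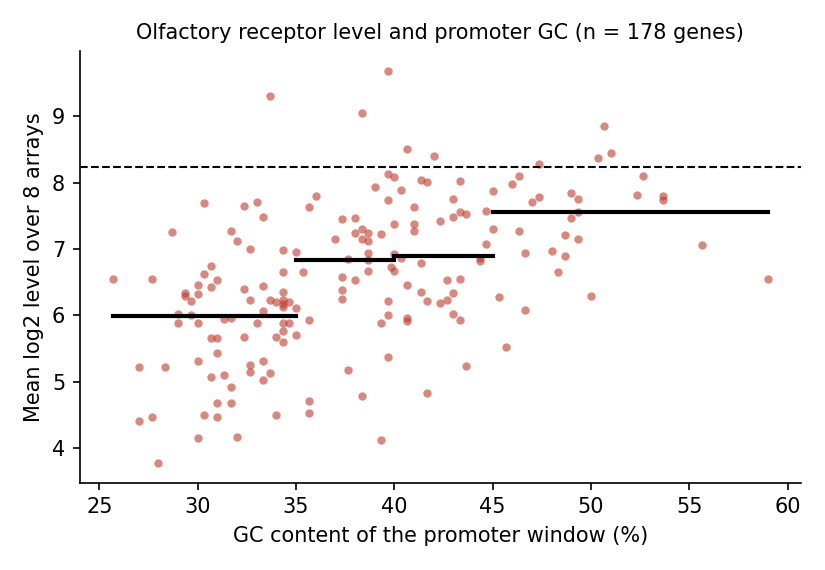
Mean log2 level over 8 arrays of 178 olfactory receptor genes (points) against the GC content (percent) of the window from 250 bases before to 50 bases after the annotated start. Black bars are medians of the 4 GC ranges, rising from 5.99 to 7.56, and the dashed line is the ceiling at 8.23.

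In 119 of the 179 windows (66.5%) the annotated start was itself an ATG, against 5.83% of all 32851 windows, so many of these windows lie before the coding sequence and not before a mapped transcript start. A homeodomain motif, TAATTA, the TATA motif, TATAAA, and the longer palindromic motif of Ebf factors were searched on both strands. The Ebf motif was found in 0 of the 179 receptor windows and in 0.904% of all windows. TAATTA was found in 29 receptor windows (16.2%) and in 5.29% of all windows. TATAAA was found in 64 windows (35.8%) and in 13.6% of all. Genes with TAATTA had a median level of 6.46 against 6.55 for those without, and genes with TATAAA one of 6.23 against 6.83. TAATTA and TATAAA hold only A and T, and median GC content was 38.0% in receptor windows against 52.7% in all windows. Neither the motif shares nor these levels were adjusted for base composition. Olfr767 and Olfr401 both held TATAAA.

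Other families of chemosensory and tissue-restricted genes overlapped the receptors. All 30 vomeronasal receptor genes (Vmn1r and Vmn2r, pheromone receptors) lay at or below the ceiling, from 3.98 for Vmn1r197 to 7.42 for Vmn1r217, with a median of 5.88. So did all 13 trace amine receptor genes, which are olfactory receptors of a separate family, from 3.90 for Taar8c to 7.84 for Taar5, with a median of 6.29. The 8 beta-defensins (median 6.59), 7 crystallins of the lens (7.32) and 7 photoreceptor genes (7.61) were also all at or below it. Of 18 liver secretory genes 15 were, and the 3 above it were Apoa2 (8.85), Cyp27a1 (8.75) and Serpinc1 (8.24). Serpinc1 was above the ceiling of its genotype in Dom/Dom (8.31) and not in wild type (8.18). Of 20 keratin-associated protein genes, which encode hair proteins, 14 lay at or below the ceiling and 6 above it. Of those, Krtap17-1, at 10.20, was above every receptor.

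Genes that work with the receptors were mixed. Of 6 measured genes of olfactory signalling and receptor trafficking, 4 were above the ceiling and 2 below it. Rtp1, a chaperone that brings odorant receptors to the membrane, stood at 7.43, within the receptor range. Adcy3, the cyclase of the pathway, stood at 9.17, and Ric8b, an exchange factor for olfactory G proteins that acts with other G proteins too, at 10.96. Slc24a4, a calcium exchanger of olfactory neurons, had a Dom/Dom mean of 7.83 ± 0.15 and a wild-type mean of 8.28 ± 0.12 (SD, n = 4). Its difference of -0.45 (standard error 0.10) gave an adjusted p of 0.0998 in limma, and of 0.0221 once replicates were blocked. All 9 measured regulators of receptor choice and olfactory neurons were above the ceiling, from Bcl11b at 9.03 to the heterochromatin protein gene Cbx5 at 13.30. Ebf1 stood at 11.25, Ebf2 at 10.43 and Lbr, the lamin B receptor gene, at 12.40. In both lists 0 genes passed without the block, against 0.481% of all genes, and Slc24a4 was the single one that passed with it, against 1.5% of all genes. These shares leave 0 or 1 call among so few genes near the background.

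At the upper end, 34 of 35 cytoplasmic ribosomal protein genes (median 13.08) and all 27 mitochondrial ribosomal protein genes (median 10.61) were above the ceiling. So were 17 of 18 genes with a proteasome (Psm) symbol (median 12.04). The 2 below it were Rpl39l (5.97) and Psmb11 (8.0), both known as tissue-specific paralogs, of the testis and the thymus. Another ribosomal paralog, Rpl10l, stood above it at 8.33, with 8.46 in Dom/Dom. Its wild-type mean of 8.20 was under the ceiling taken in wild type, 8.25. Of 8 measured genes of glia and Schwann cell precursors, 7 were above the ceiling by their mean over both genotypes, up to Fabp7 at 14.03. S100b, at 7.39, was below it. Against the ceiling of each genotype, 7 were above it in wild type and 6 in Dom/Dom, where Cdh19 stood at 6.87.

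**Figure D4:**
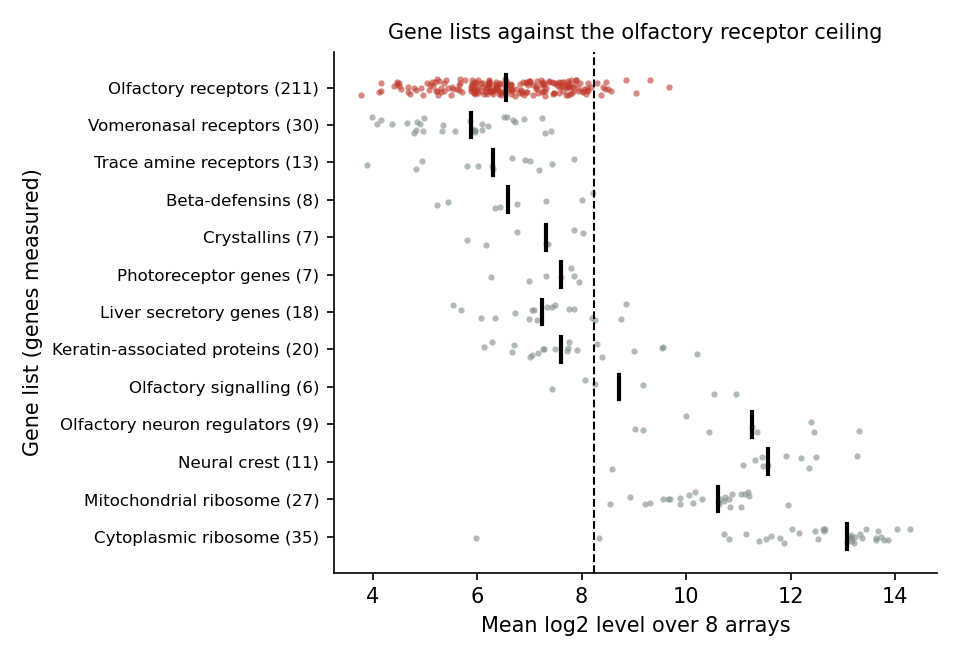
Mean log2 level over 8 arrays of each measured gene (points) in 13 gene lists, with the list's median as a black bar and the receptor ceiling of 8.23 as a dashed line. All vomeronasal and trace amine receptor genes lie at or below it, and all neural crest and mitochondrial ribosomal genes above it.

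No receptor gene passed the test between the genotypes. In the limma fit over all 6855 genes, 0 of 211 receptors passed an adjusted p of 0.05, where 33 genes (0.481%) passed in the whole table, 5 higher (0.0729%) and 28 lower (0.408%) in Dom/Dom. With the replicate number as a block 0 receptors passed, where 103 genes (1.5%) did. At an unadjusted p under 0.05 there was 1 receptor (0.474%) without the block, against 419 genes (6.11%) in all, and 13 (6.16%) with it, against 950 (13.9%). The lowest adjusted p of a receptor was 0.376 without the block and 0.110 with it. Groups of 4 arrays did not overlap in 3 receptors (1.42%), against 3.78% of all genes.

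The differences were small on both sides of 0. The median difference, Dom/Dom minus wild type, was 0.019, against -0.00095 over all genes. In Dom/Dom 123 receptors (58.3%) were higher and 88 lower, where 49.3% of the other genes were higher. In pairs of same-numbered arrays the family median was 0.065, -0.0036, 0.019 and 0.020 for replicates 1 to 4. In these pairs 134, 104, 118 and 114 of 211 genes (63.5%, 49.3%, 55.9% and 54.0%) were higher in Dom/Dom. Over all genes the shares were 46.8%, 56.5%, 46.2% and 50.1%. Within replicates 1 and 2 the family median was 0.034 and within replicates 3 and 4 it was 0.0049. Without Dom/Dom replicate 1 the median was -0.036, and without wild-type replicate 4 it was -0.0094. The sign of the family's shift therefore rested on single arrays.

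Intervals, taken gene by gene from the fit without the block, limit how large a difference in probe set signal these arrays could have missed. They do not bound a difference in RNA, since RMA shrinks contrasts among dim probe sets. The 95% interval of the difference lay within 1 log2 unit of 0 in all 211 genes and within 0.5 in 206, and the most distant bounds were -0.59 and 0.61. Differences ran from -0.25 to 0.27. The spread between arrays of a genotype (SD) had a median of 0.15 in the receptors, 0.13 in other genes at or below the ceiling and 0.15 in those above it.

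Olfr769 (probe set 10373614, chromosome 10) had the largest negative difference and was the gene with unadjusted p under 0.05. Its levels were 7.0, 6.93, 7.04 and 7.0 in Dom/Dom arrays and 7.12, 7.21, 7.28 and 7.38 in wild type, so that the groups did not overlap. The difference was -0.25 ± 0.08 (standard error), and limma gave it an adjusted p of 0.376, or 0.110 when replicates were blocked. Olfr1512 (6.46, 6.48, 6.47 and 6.27 against 6.81, 6.53, 6.50 and 6.60) was lower by a difference of -0.19, also without overlap. Neither passed the threshold. The other 3 of the 5 most negative differences were those of Olfr325 (-0.16), Olfr323 (-0.15) and Olfr330 (-0.14), whose groups overlapped.

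Olfr316 (chromosome 11) had the largest positive difference, 0.27 with a standard error of 0.15. It stood at 8.53, 7.92, 8.03 and 8.19 in Dom/Dom and at 7.75, 7.62, 8.15 and 8.07 in wild type. It was higher in Dom/Dom in replicates 1, 2 and 4 and lower in replicate 3, and the groups overlapped. Olfr394 differed by 0.20 through 1 array: its Dom/Dom values were 6.31, 6.24, 6.43 and 7.04, against 6.26 to 6.35 in wild type. Olfr414 (0.21), Olfr1396 (0.20) and Olfr139 (0.17) were higher in Dom/Dom in 4 of 4 pairs, with adjusted p of 0.315, 0.161 and 0.252 with the replicate block. The third gene without overlap was Olfr1364, higher in Dom/Dom by 0.12. The genes of widest spread within genotypes were Olfr776, with wild-type values of 5.06, 5.26, 4.49 and 4.15, Olfr742, with Dom/Dom values of 4.76, 4.95, 4.13 and 4.09, and Olfr767.

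**Figure D5:**
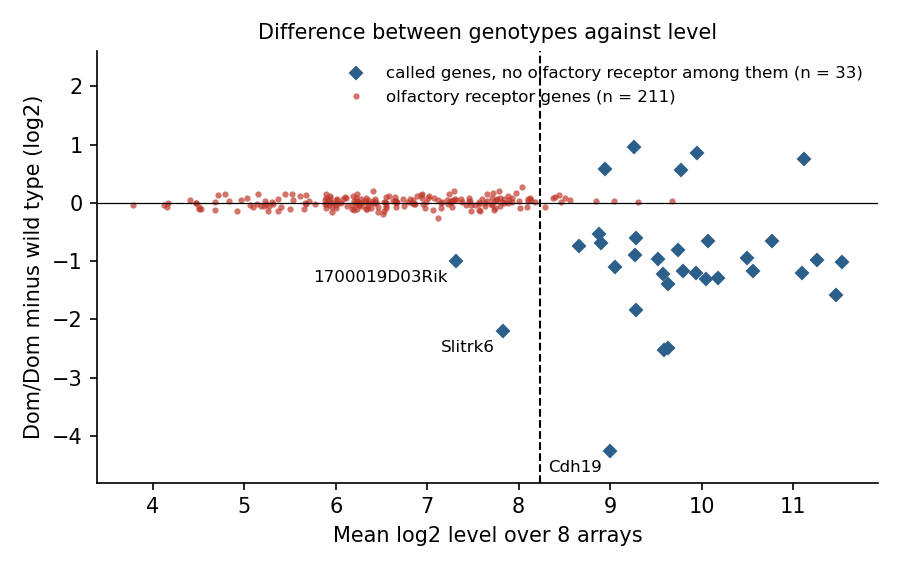
Difference between genotypes (Dom/Dom minus wild type, log2) against the mean log2 level over 8 arrays for 211 olfactory receptor genes (red) and the 33 genes that passed the limma test (blue). The receptors lie between -0.25 and 0.27 and the called genes outside that range, which the threshold of the test largely fixes. The dashed line is the ceiling at 8.23.

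Set against the receptors, all 33 called genes differed by more than the largest receptor difference of 0.27. The threshold requires a difference large against its standard error, so this outcome was largely fixed by the calling and tests nothing about the receptors. Of the 6644 other genes, 386 (5.81%) differed by more than 0.27. That share was 3.59% of genes at or below the ceiling and 6.83% of those above it. Of the 33, 30 stood above the ceiling in both genotypes (8.22 in Dom/Dom and 8.25 in wild type). In these bulk cultures, fewer cells of a type and less RNA per cell cannot be told apart.

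The largest falls reached the receptor range. Cdh19, a cadherin of Schwann cell precursors, stood at 6.87 ± 0.66 in Dom/Dom, a level above that of 59.2% of receptors there, and at 11.13 ± 0.86 in wild type, above all of them (SD, n = 4). Slitrk6, a neuronal membrane protein gene, stood at 6.73 ± 0.45 in Dom/Dom, above 55.9% of receptors, and at 8.92 ± 0.55 in wild type (SD, n = 4), above 98.6%. In both genes 0 of 4 Dom/Dom arrays exceeded the 95th percentile of receptors in that array. The melanocyte genes Dct (8.32) and Pmel (8.36) and the laminin gene Lama4 (8.39) ended just over the ceiling in Dom/Dom, each above 95.3% of receptors. Dct and Lama4 exceeded the 95th percentile of their array in 3 of 4 Dom/Dom arrays, and Pmel in 2. Chst3, with a smaller fall, also stood just over the ceiling there at 8.29, and exceeded that percentile in 1 of 4. Sox10 itself lay above every receptor in both genotypes, with a Dom/Dom mean of 10.50 ± 0.40 and a wild-type mean of 11.69 ± 0.18 (SD, n = 4). The gene 1700019D03Rik was the single called gene at or below the ceiling in both genotypes, with means of 6.81 ± 0.22 and 7.81 ± 0.25 (SD, n = 4) and an adjusted p in limma of 0.0143, or 0.0367 when replicates were blocked. Its wild-type level exceeded that of 85.8% of receptors. Of the 2092 other genes at or below the ceiling, 2 passed without the block (0.0956%) and 12 with it (0.574%), against 31 (0.681%) and 91 (2.00%) of the 4552 above it.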

How the data were processed

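The deposited table gives each probe set a log2 expression value in every array. The submitters' processing notes name RMA and Partek; their versions are not given in the sources used here. As a method, RMA removes background, makes arrays comparable and combines probes on a log2 scale, which shrinks contrasts among dim probe sets. Of 16381 probe sets in the table used here, 7416 had 1 symbol in the platform annotation, 509 several and 8456 none. Probe sets with 1 symbol were kept, symbols were updated by gene identifier in a RefSeq table (6829 of 6855 genes matched), and the brightest probe set represented a gene. Precision is limited by how many arrays there were.

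A linear model with genotype as its single term was fitted by lmFit and eBayes of limma 3.58.1 (R 4.3.3), with two-sided p-values adjusted by Benjamini-Hochberg over 6855 genes and a threshold of 0.05. The fit was tested on simulated data with independent noise in each array. Those data held no shared movement of same-numbered arrays, so they cannot speak to the pairing described next. The genotypes share replicate numbers. Deviations from the genotype means correlated at 0.47, 0.58, 0.61 and 0.67 in same-numbered arrays over all genes, all over 0.1. Within the receptors they correlated at 0.14, 0.33, 0.31 and 0.17. The main fit, with its standard errors and intervals, did not use this pairing. Only the comparisons of same-numbered arrays and the fit with a block did. No label states this pairing. Some differently numbered arrays, within replicates 1 and 2 and within 3 and 4, were above 0.1 too. A fit with the number as a block was the alternative.

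Named receptors were those above the fence in all 8 arrays, the 5 highest, the 5 lowest, the 5 largest differences each way, any past the threshold and the 3 of largest spread; others were chosen after their values were seen. The members and lists were chosen with earlier results of these data known.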

Additional observations from a re-analysis of the deposited data

Results flagged for a closer look

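In 54 sets of 4 arrays of a genotype (22 named receptors and 5 percentiles of the family), 4 held a value far from the other 3. In sets not picked by their values, chance flags about 1 in 20, or 2.7 here. The 22 named receptors were picked by level, difference or spread, so that rate is only a rough guide. The family median was high in Dom/Dom replicate 1, at 6.68 where the remaining 3 of that genotype lay from 6.51 to 6.54. Olfr1512 was low in Dom/Dom replicate 4, at 6.27 against 6.46 to 6.48. Olfr330 was low in Dom/Dom replicate 3, at 7.10 against 7.50 to 7.53. Olfr787 was high in wild-type replicate 2, at 4.48 against 4.35 in the other 3.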

How the results depend on the processing

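The count of receptors past the limma threshold was 0 in the 15 other fits: with the replicate block, an intensity trend, array weights, no dim genes, all probe sets, quantile normalization, arrays centred on the receptor median, and without each array in turn. With array weights 8 receptors had an unadjusted p under 0.05, and the lowest adjusted p was 0.0627. Without the dimmest 25% of genes, 28 receptors were left to test. No receptor passed the fence in every array under any alternative run. Over all genes the count of 33 was 103 with the replicate block, 190 with array weights and 14 with arrays centred on the receptor median. Without 1 array it ran from 10 to 51, with 10 to 12 without any array of replicates 3 and 4 and 51 without wild-type replicate 2. The family's median difference of 0.019 ran from -0.036 to 0.052 without 1 array, was 0.055 with arrays centred on their medians and was the same with the replicate block. The share of other genes above the ceiling was 74.8% with the 90th percentile as ceiling and 55.3% with the 99th, and from 68.3% to 68.9% without 1 array. The split by replicates 1 and 2 against 3 and 4 was chosen after seeing the data. Causes were not tested. Without detection calls, signal over background was not assessed per gene.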

Other observations

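Among probe sets left out of the family, 32 were annotated to several odorant receptor genes and no other gene. Their levels ran from 5.12 to 8.23 with a median of 7.06, and 0 of 32 stood above the ceiling. Differences between genotypes in these probe sets lay between -0.08 and 0.19. The 2 pseudogenes, Olfr1372-ps1 and Olfr421-ps1, stood at 6.54 and 5.49, with differences of -0.0017 and -0.017.

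Where a receptor had 2 probe sets, these differed in level by more than arrays did. Olfr263 had probe sets at 6.65 and 4.56, with differences between genotypes of 0.11 and -0.12, and Olfr54 had probe sets at 8.18 and 7.27, with differences of 0.02 and -0.0088. Among dim genes outside the family that passed with the replicate block were 2 microRNA genes, both higher in Dom/Dom: Mir300 (7.46 against 6.81, limma adjusted p = 0.0689; 0.00439 with the block) and Mir382 (8.28 against 7.81, adjusted p = 0.456; 0.0164 with the block). Both were chosen after their values were seen.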
